A study of Homo sapiens with 10 samples.

Results

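The first and the second YTHDF1 knockdown library, shY1-1 and shY1-2, were compared with each other in HCT116, a human colorectal cancer cell line. They were chosen by their names in the expression table, and with a ribosome footprint library and an mRNA library each they make up 4 of the 10 samples of the series. Both carry a hairpin against YTHDF1. The sample titles name shY1-1 and shY1-2, whereas the genotype label reads shY1 for both, so the libraries may come from separate hairpins or from repeats of the same one. The control library of each assay, which carries a hairpin against GFP per the file headers, is given beside them. Per the labels, all of these cells received cycloheximide (100 ug/ml, 3 min) to hold ribosomes in place, and nothing there says whether the libraries came from separate cultures. With 1 library on each side of each assay, no difference below has a replicate check, and none carries a p-value.

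YTHDF1 reads N6-methyladenosine (m6A), a chemical mark on mRNA, in the cytoplasm and is studied for its part in translation and mRNA decay. Ribosome profiling sequences the mRNA fragments that ribosomes protect, so the footprints of a gene follow the amount of its mRNA and the ribosomes each mRNA carries. Cultured cells can leave the cell cycle through p53, a transcription factor of the damage and stress response that HCT116 carries in its normal form. Active p53 raises genes of arrest and apoptosis, and genes of DNA replication and mitosis, driven by E2F factors and by the DREAM and MuvB complexes, then decline.

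Values are a relative signal per gene whose read depth is unknown. A difference is log2(value + 1) in shY1-1 minus the same in shY1-2, less the median over the 6782 genes kept, which was -0.06 for mRNA and 0.13 for footprints. This scale understates the differences of low genes. The genes analysed here lie on chromosomes 1 to 4 and 10 to 22, with 1 on chromosome 7, so lists and marker sets hold only members from these. A gene is counted as higher or lower where the difference is at least 1, a fold of 2 on that scale. The highest 10 genes held 25.6% of the footprint signal in shY1-1, 37.3% in shY1-2 and 36.1% in the control, and 13.6% to 14.9% of the mRNA signal. Footprints were listed at 0 for 177 genes in shY1-1, 37 genes in shY1-2 and 0 genes in the control. Of 9 colorectal epithelial markers 6 were in the table (EPCAM, CDH1, KRT8, KRT18, KRT19 and CDX2), and their summed mRNA signal was 5499 in shY1-1, 3403 in shY1-2 and 3920 in the control. The 3 fibroblast markers in the table, COL1A1, FN1 and VIM, summed to 7.13, 6.35 and 7.50 of mRNA signal in shY1-1, shY1-2 and the control. CD68, the only blood marker in the table, had an mRNA signal of 4.98 in shY1-1 and of 19.9 in both shY1-2 and the control. Its footprint signal was far above this, at 10162.5 in shY1-1, 9485 in shY1-2 and 15090 in the control, and the cause was not tested. No endothelial marker was in the table.

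YTHDF1 itself (chromosome 20, 63195429 to 63216131) was low in both knockdown libraries. Its mRNA signal was 8.62 in shY1-1, 7.81 in shY1-2 and 27.4 in the control. Its footprint signal was 17.0 in shY1-1, 19.9 in shY1-2 and 61.4 in the control. The knockdown libraries were therefore close to each other in the targeted gene, with an mRNA difference of 0.19 and a footprint difference of -0.35, while they differed across many other genes.

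Between the knockdown libraries, mRNA of p53 target genes was higher in shY1-1 and mRNA of replication and mitosis genes was lower, and the footprints showed the same pattern. Of all genes, 201 (2.96%) had at least 2-fold higher mRNA in shY1-1 and 223 (3.29%) at least 2-fold lower mRNA. For footprints these counts were 627 (9.25%) and 733 (10.8%). In both assays at once, 98 genes (1.45%) were higher and 93 (1.37%) were lower. The counts depend on the value added before the logarithm: with 0.1 in place of 1 they were 324 and 363 for mRNA, and with 5 they were 69 and 60. Just inside and outside the threshold of the mRNA difference lay CTH at 1.01 and FGD6 at 0.9999, and SESTD1 at -1.0003 and TP73 at -0.9997.

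Of the knockdown libraries, shY1-1 departed more from the control, and this was clearer in mRNA than in footprints. The control lay nearer to shY1-2 than to shY1-1 for 4647 of 6782 genes in mRNA (68.5%) and for 4115 in footprints (60.7%). Among the genes with a 2-fold mRNA difference, the control lay nearer to shY1-2 for 169 of the 201 higher and 186 of the 223 lower genes. With a 2-fold footprint difference, it did so for 410 of the 627 higher (65.4%) and 548 of the 733 lower genes (74.8%). The median absolute distance to the control was 0.32 for shY1-1 and 0.18 for shY1-2 in mRNA, and 0.52 for shY1-1 and 0.38 for shY1-2 in footprints. Both distances share the 1 control library of the assay, and the part of noise of single libraries in them was not tested.

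**Figure D1:**
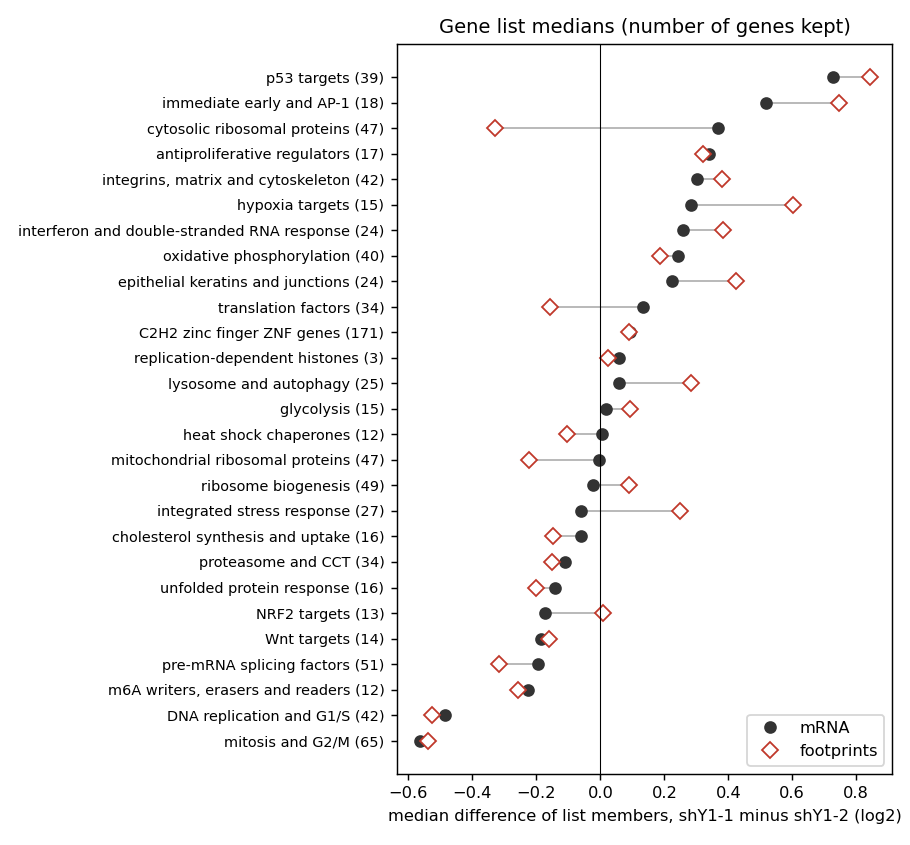
Median difference between the libraries, shY1-1 minus shY1-2 on the log2 scale (horizontal), for each of 27 gene lists (vertical), with mRNA as filled circles and footprints as open diamonds. The p53 targets lie highest at 0.73 for mRNA and 0.84 for footprints, mitosis genes lie lowest at -0.56 and -0.54, and cytosolic ribosomal proteins are apart at 0.37 for mRNA and -0.33 for footprints.

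The p53 targets were the list that was highest in shY1-1. Of the 39 members kept, 37 had a positive mRNA difference and 33 a positive footprint difference, against 50% of all genes for each. At least 2-fold higher were 13 members in mRNA (2.96% of all genes), 17 in footprints (9.25%) and 12 in both (1.45%). None was 2-fold lower in either assay (3.29% of all genes in mRNA and 10.8% in footprints). The median difference was 0.73 for mRNA and 0.84 for footprints, against 0 for all genes by centring. The median of footprint minus mRNA difference was 0.01 (0.20 without centring). Against the control, the list median in mRNA was 0.82 for shY1-1 and 0.12 for shY1-2, and in footprints it was 0.81 for shY1-1 and -0.00 for shY1-2. A bulk library cannot tell more RNA per cell from more cells that express it.

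The largest difference belonged to BTG2 (chromosome 1, 203305519 to 203309602), an antiproliferative protein of the BTG and TOB family that recruits the CCR4-NOT deadenylase. Its mRNA signal was 51.1 in shY1-1, 10.4 in shY1-2 and 5.29 in the control, and its footprint signal was 52.8 in shY1-1, 5.87 in shY1-2 and 6.68 in the control. The shY1-1 library was high in both assays, with differences of 2.25 for mRNA and 2.84 for footprints, and in footprints shY1-2 was no higher than the control. BBC3, which encodes the apoptosis inducer PUMA, had 26.4 of mRNA signal in shY1-1, 7.87 in shY1-2 and 2.80 in the control. Its footprint signal was 9.52 in shY1-1, 2.31 in shY1-2 and 2.15 in the control. Here shY1-2 mRNA stood between the control and shY1-1, with differences of 1.69 for mRNA and 1.54 for footprints. SESN2, a stress-induced inhibitor of mTORC1, had 13.0 of mRNA signal in shY1-1, 3.58 in shY1-2 and 2.42 in the control. Its footprint signal was 13.3 in shY1-1, 1.25 in shY1-2 and 3.16 in the control, which put shY1-2 below the control, and the differences were 1.68 for mRNA and 2.54 for footprints.

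PHLDA3, an inhibitor of AKT signalling, had 33.1 of mRNA signal in shY1-1, 10.9 in shY1-2 and 9.72 in the control, and 10.5, 2.64 and 1.77 of footprint signal in shY1-1, shY1-2 and the control. SERPINB5 encodes maspin, a serpin of epithelial cells, and had 25.5 of mRNA signal in shY1-1, 8.30 in shY1-2 and 7.52 in the control. Footprint signals were 77.7 in shY1-1, 23.4 in shY1-2 and 37.1 in the control. TP53I3, a quinone oxidoreductase, had 16.5, 5.53 and 3.91 of mRNA signal and 39.0, 15.1 and 18.6 of footprint signal in shY1-1, shY1-2 and the control. All 3 were nearly as different in footprints as in mRNA, at 1.58 and 1.53 for PHLDA3, 1.57 and 1.56 for SERPINB5 and 1.48 and 1.18 for TP53I3. In the footprints of SERPINB5 and TP53I3, shY1-2 lay below the control.

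Footprints of SUSD6 and TRAF4 differed more than their mRNA. SUSD6 had 22.1 of footprint signal in shY1-1, 4.14 in shY1-2 and 11.7 in the control, a difference of 2.04 against 0.69 for its mRNA. TRAF4, an adaptor of TNF receptor signalling, had 208 in shY1-1, 53.05 in shY1-2 and 78.1 in the control, a difference of 1.82 against 0.91 for its mRNA. In both genes shY1-2 was lower than the control, so the footprint difference holds a part on each side of it. The following members were picked after their values were seen. MDM2, the ubiquitin ligase that degrades p53, had an mRNA difference of 0.69 and a footprint difference of 0.23, with mRNA signals of 99.8 in shY1-1, 63.9 in shY1-2 and 57.4 in the control. The negative mRNA differences belonged to TSKU at -0.95 and CCDC90B at -0.31. CDKN1A, the best known arrest gene under p53, lies on none of these chromosomes and was not analysed here.

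**Figure D2:**
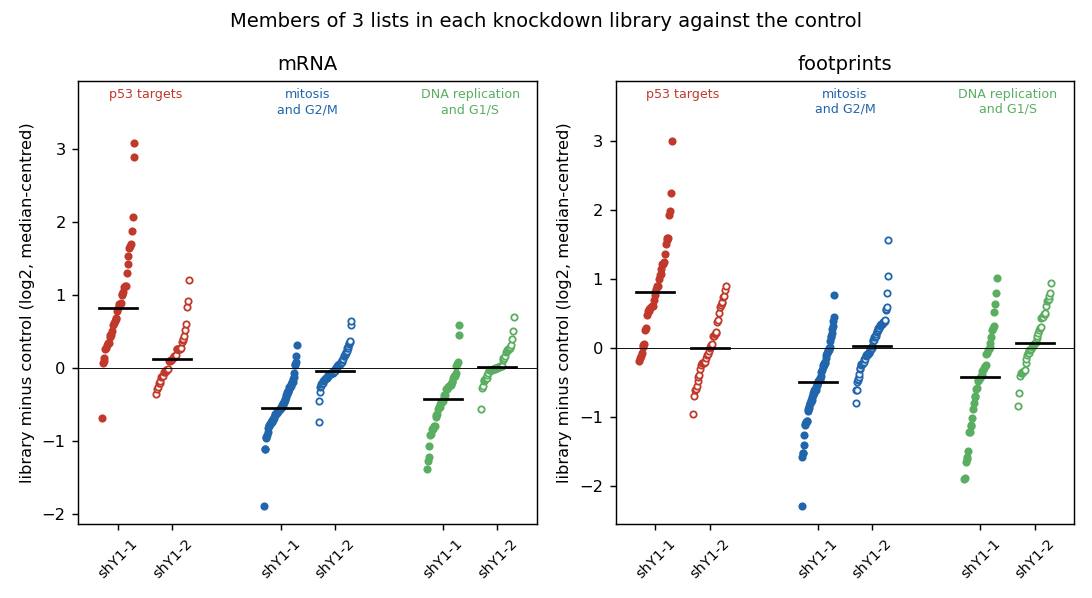
Each knockdown library minus the control, as centred log2 differences (vertical), for members of 3 lists in mRNA (left) and footprints (right), with shY1-1 as filled and shY1-2 as open circles and a bar at the median. The p53 targets have medians of 0.82 for shY1-1 and 0.12 for shY1-2 in mRNA, and mitosis genes have medians of -0.55 for shY1-1 and -0.04 for shY1-2. All points of a panel share its 1 control library.

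Other antiproliferative genes were partly higher in shY1-1. The list of 17, which shares BTG2 and GADD45A with the p53 targets, had a median of 0.34 for mRNA and 0.32 for footprints, with 3 members higher and 1 lower in mRNA (2.96% and 3.29% of all genes), and 4 higher and 0 lower in footprints (9.25% and 10.8% of all genes). With a minimum mean of 3 in each assay the footprint median was 0.58. TOB1 (chromosome 17, 50862223 to 50867978), a relative of BTG2, had 39.8 of mRNA signal in shY1-1, 13.7 in shY1-2 and 19.4 in the control, and 144 of footprint signal in shY1-1, 35.6 in shY1-2 and 70.8 in the control. Its differences were 1.53 for mRNA and 1.86 for footprints, and the control lay between the knockdown libraries. BTG1 was 1.47 higher in mRNA but 0.32 higher in footprints, whose signal was 32.7 in shY1-1, 23.6 in shY1-2 and 31.1 in the control. BTG3 showed the other order, with an mRNA difference of 0.89 and a footprint difference of 2.02 (154 in shY1-1, 33.9 in shY1-2 and 109 in the control). FOXO1, a transcription factor of quiescence, had a footprint difference of 1.22. CDKN2C, an inhibitor of the kinases CDK4 and CDK6, was the member with lower mRNA in shY1-1, at -1.07, with 1.98 in shY1-1, 5.52 in shY1-2 and 4.52 in the control. The 5 BTG and TOB genes in the table all had positive differences in both assays, with medians of 1.47 for mRNA and 1.86 for footprints, a grouping made after their values were seen.

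Genes of mitosis and G2/M formed the lowest list, with small differences in the same direction. Of 65 members, 60 had a negative mRNA difference, 57 a negative footprint difference and 53 both, where 31.9% of all genes were negative in both. The median was -0.56 for mRNA and -0.54 for footprints, and that of footprint minus mRNA difference was -0.05 (0.14 without centring). At least 2-fold lower were 4 members in mRNA (3.29% of all genes) and 11 in footprints (10.8% of all genes). Only 1, MYBL2, was lower in both (1.37% of all genes). Against the control, the mRNA median was -0.55 for shY1-1 and -0.04 for shY1-2, and the footprint median was -0.49 for shY1-1 and 0.03 for shY1-2.

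MYBL2 (chromosome 20, 43667114 to 43716482), the B-MYB transcription factor that turns on late cell cycle genes, had 21.5 of mRNA signal in shY1-1, 76.1 in shY1-2 and 84.3 in the control. Footprint signals were 10.7 in shY1-1, 30.3 in shY1-2 and 34.4 in the control. The shY1-1 library was low in both assays while shY1-2 was near the control, and the differences were -1.72 for mRNA and -1.55 for footprints. INCENP, a scaffold of the chromosomal passenger complex, had 27.6 of mRNA signal in shY1-1, 68.9 in shY1-2 and 44.8 in the control, but a footprint difference of only -0.43 (23.7 in shY1-1, 29.3 in shY1-2 and 31.8 in the control). MKI67, which encodes the proliferation marker Ki-67, had 20.7 of mRNA signal in shY1-1, 50.1 in shY1-2 and 41.9 in the control, and 18.9, 26.9 and 22.9 of footprint signal in shY1-1, shY1-2 and the control. CCNF, an F-box protein of G2, had 8.82, 20.9 and 20.7 of mRNA signal in shY1-1, shY1-2 and the control. The mRNA differences of these 3 genes, -1.23 for INCENP, -1.18 for MKI67 and -1.10 for CCNF, were larger than their footprint differences of -0.43, -0.62 and -0.80.

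SPC25, DLGAP5 and ESPL1, named for their low footprints, differed more in footprints than in mRNA. SPC25, a subunit of the NDC80 kinetochore complex (chromosome 2, 168861521 to 168890430), had 42.3 of footprint signal in shY1-1, 207 in shY1-2 and 240 in the control, a difference of -2.39. Its mRNA signal was 18.4 in shY1-1, 33.0 in shY1-2 and 35.7 in the control, a difference of -0.75. DLGAP5, a spindle protein, had differences of -1.33 for footprints and -0.67 for mRNA, and ESPL1, the separase that cleaves cohesin, had -1.29 and -0.58. For these genes both assays pointed the same way. They were picked on footprints and INCENP, MKI67 and CCNF on mRNA, and such a choice favours the assay used. Over the whole mitosis list, the footprint minus mRNA difference was above 0 for 30 members and below 0 for 35.

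The upstream sequences of the 3 mitotic genes that were at least 2-fold lower in mRNA and held the cell cycle homology region are shown, since this element and the CCAAT box mark promoters bound by MuvB complexes and NF-Y. Each is the 150 bases before the RefSeq start in GRCh38.p14, written 5′ to 3′ along the gene, with TTTGAA and CCAAT in capitals on either strand (TTCAAA and ATTGG on the other). In MKI67 a TTTGAA and an ATTGG overlap.
INCENP, chr11:62123861-62124010, + strand: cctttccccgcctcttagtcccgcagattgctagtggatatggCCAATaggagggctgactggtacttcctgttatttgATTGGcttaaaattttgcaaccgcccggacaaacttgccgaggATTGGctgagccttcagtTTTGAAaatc
MKI67, chr10:128126424-128126573, - strand: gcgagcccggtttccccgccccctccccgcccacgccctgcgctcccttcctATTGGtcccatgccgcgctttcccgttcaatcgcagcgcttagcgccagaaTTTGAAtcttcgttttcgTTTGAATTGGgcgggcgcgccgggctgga
CCNF, chr16:2429297-2429446, + strand: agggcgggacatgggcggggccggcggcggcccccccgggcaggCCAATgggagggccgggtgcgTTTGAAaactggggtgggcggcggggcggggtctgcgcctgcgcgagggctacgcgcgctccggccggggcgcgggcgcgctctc
Both strands of the 250 bases before the start, called the window here, were searched in the 4041 genes kept with exactly 1 RefSeq entry. TTTGAA was in 24 of 46 mitosis windows (52.2%) and in 7.28% of all windows, and TTTGAA together with CCAAT was in 22 of 46 (47.8%) and 3.42%. Within the mitosis list the element did not sort the genes by their difference. The median mRNA difference was -0.58 with TTTGAA and -0.58 without it, and the footprint median was -0.55 with it and -0.64 without it. A match of letters is a description and not a binding site.

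Genes of DNA replication and the G1/S transition were lower to a similar degree. Of 42 members, 37 had a negative mRNA difference and 34 a negative footprint difference, with medians of -0.49 and -0.52. At least 2-fold lower were 6 members in mRNA (3.29% of all genes), 11 in footprints (10.8%) and 3 in both (1.37%). One member, CCNE1, was 2-fold higher in footprints (9.25% of all genes). Against the control the mRNA median was -0.43 for shY1-1 and 0.01 for shY1-2.

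POLE, the catalytic subunit of DNA polymerase epsilon (chromosome 12, 132623762 to 132687342), had 13.3 of mRNA signal in shY1-1, 36.5 in shY1-2 and 21.8 in the control. Footprints were 11.9 in shY1-1, 40.7 in shY1-2 and 43.1 in the control. In mRNA shY1-2 was above the control and shY1-1 below it, and in footprints shY1-1 stood apart alone, with differences of -1.34 and -1.82. E2F1, which activates S phase genes, had 4.13 of mRNA signal in shY1-1 and 11.8 in both shY1-2 and the control, and 0.705, 2.02 and 3.26 of footprint signal in shY1-1, shY1-2 and the control. CHAF1A, a subunit of the CAF-1 histone chaperone, had mRNA signals of 18.03 in shY1-1, 43.9 in shY1-2 and 35.8 in the control. MCM6, a subunit of the replicative helicase, had 19.7 in shY1-1, 44.8 in shY1-2 and 43.6 in the control. The footprint differences of CHAF1A and MCM6, -0.63 and -0.33, were smaller than their mRNA differences of -1.18 and -1.09. TIMELESS, of the fork protection complex, and POLA2, of DNA polymerase alpha, were lower to the same degree in both assays, at -1.09 and -1.27 for TIMELESS and -1.07 and -1.17 for POLA2.

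In footprints the lowest members were GINS3, MCM10, POLE and E2F8. GINS3, a subunit of the helicase complex (chromosome 16, 58392471 to 58406147), had 1.24 of footprint signal in shY1-1, 9.21 in shY1-2 and 8.45 in the control, a difference of -2.32, and -0.67 in mRNA. MCM10, an origin firing factor, had 12.1 of footprint signal in shY1-1, 44.6 in shY1-2 and 54.8 in the control, a difference of -1.93, and -0.90 in mRNA. E2F8, a repressor of the E2F family, had footprint and mRNA differences of -1.66 and -0.86. CCNE1, cyclin E1, went the other way in footprints, at 32.8 in shY1-1, 13.9 in shY1-2 and 18.2 in the control, with an mRNA difference of -0.19.

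The letters of the E2F element are shown for 4 replication genes with lower mRNA, a choice made after their values were seen. Each is the 160 bases before the RefSeq start in GRCh38.p14, 5′ to 3′ along the gene, with TTTCGCGC, TTTGGCGC or TTTCCCGC on either strand in capitals. In MCM6, matches on the 2 strands overlap at each of 2 places.
POLE, chr12:132687343-132687502, - strand: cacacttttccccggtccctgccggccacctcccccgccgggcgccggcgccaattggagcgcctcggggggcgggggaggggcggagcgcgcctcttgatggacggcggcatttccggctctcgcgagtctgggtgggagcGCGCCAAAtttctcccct
E2F1, chr20:33686386-33686545, - strand: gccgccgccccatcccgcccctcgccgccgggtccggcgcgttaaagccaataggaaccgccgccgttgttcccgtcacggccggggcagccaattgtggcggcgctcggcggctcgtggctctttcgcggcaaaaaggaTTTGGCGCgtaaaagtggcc
MCM6, chr2:135876444-135876603, - strand: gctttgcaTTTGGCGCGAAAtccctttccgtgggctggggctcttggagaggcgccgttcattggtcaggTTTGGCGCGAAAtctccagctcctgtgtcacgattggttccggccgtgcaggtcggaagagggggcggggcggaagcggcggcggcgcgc
POLA2, chr11:65261802-65261961, + strand: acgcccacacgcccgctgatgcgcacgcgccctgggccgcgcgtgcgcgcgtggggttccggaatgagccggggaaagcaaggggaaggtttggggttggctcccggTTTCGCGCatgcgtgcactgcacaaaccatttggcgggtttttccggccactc
One of these 8-letter words was in 12 of 32 replication windows (37.5%) and in 4.65% of all windows. The 12 genes with it had a median mRNA difference of -0.80 and a median footprint difference of -0.78, and those without it had -0.32 and -0.29. Over all windows these medians were -0.12 and -0.04 with a word, and 0.02 and -0.02 without it. In the mitosis list the 3 genes with a word had -0.40 and -0.82, and those without it had -0.58 and -0.57. These differences were not tested, and a match of letters is not a binding site.

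**Figure D3:**
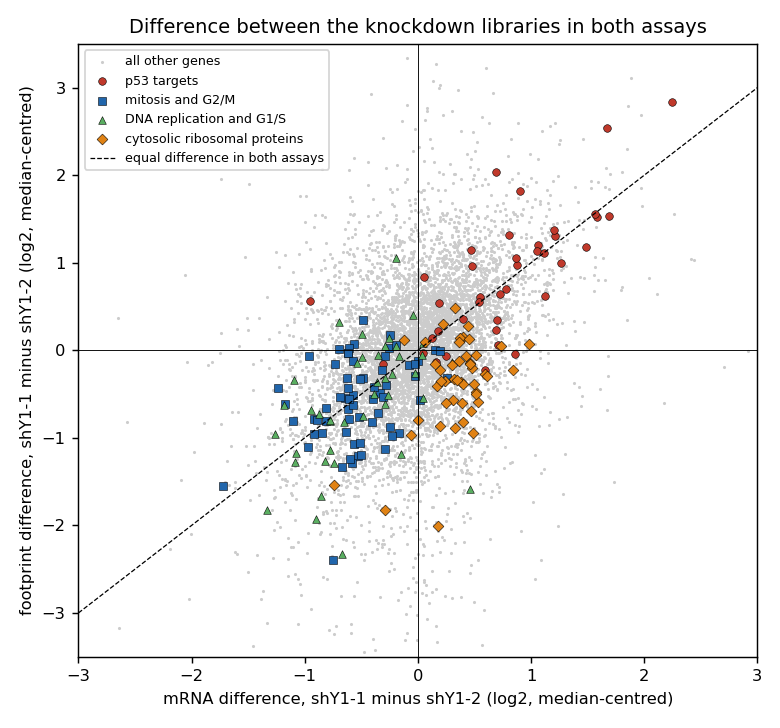
Difference between the libraries, shY1-1 minus shY1-2, in mRNA (horizontal) and in footprints (vertical), both centred log2 values, for genes of 4 lists over all other genes in grey. The p53 targets lie up and to the right and the mitosis and replication genes down and to the left, near the dashed line of equal difference, while most ribosomal protein genes lie right of 0 and below it. The axes leave out 38 genes.

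Across all genes the footprint difference went with the mRNA difference. The Pearson coefficient over 6782 genes was 0.37 and Spearman's was 0.39, given as a description, since genes are not independent replicates and the assays share no library. It was 0.28 among the 2701 genes below the median level in both assays, 0.50 among the 2701 genes at or above it and 0.55 among the 1211 genes in the upper quartile of both. The slope of footprint on mRNA difference was 0.61 over all genes and 0.68 in the upper quartile, and the reverse slope, of mRNA on footprint difference, was 0.23 and 0.45. Noise in the measure on the horizontal axis lowers a slope, so the slopes under 1 in both directions do not by themselves show buffering. The SD of the footprint difference over genes was 0.885 and that of the mRNA difference was 0.541, and the share of genes past 2-fold in footprints was 32.8% below the lower quartile of mRNA level and 9.79% above the upper quartile.

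Most genes with a 2-fold mRNA difference had a footprint difference of the same sign. The 201 genes with higher mRNA in shY1-1 had a median mRNA difference of 1.21 and a median footprint difference of 0.96. Of these genes, 165 (82.1%) had a positive footprint difference, 98 (48.8%) were also 2-fold higher and 11 were 2-fold lower in footprints. The 223 genes with lower mRNA had medians of -1.17 for mRNA and -0.88 for footprints, and 176 (78.9%) had a negative footprint difference, 93 (41.7%) were 2-fold lower and 8 were 2-fold higher. Among the well measured genes of these sets, at or above the median level in both assays, the medians were 1.16 and 1.11 for 45 higher genes and -1.14 and -0.94 for 58 lower genes. Among the 37 genes with an mRNA difference below -1.5, the median footprint difference was -0.84 at a median mRNA difference of -1.74, so at this end footprints differed less. The 627 genes with higher footprints had medians of 1.33 for footprints and 0.36 for mRNA, and the 733 with lower footprints had -1.40 and -0.34. Selection on 1 measure favours its own noise, so these shares are descriptions of the 4 libraries.

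**Figure D4:**
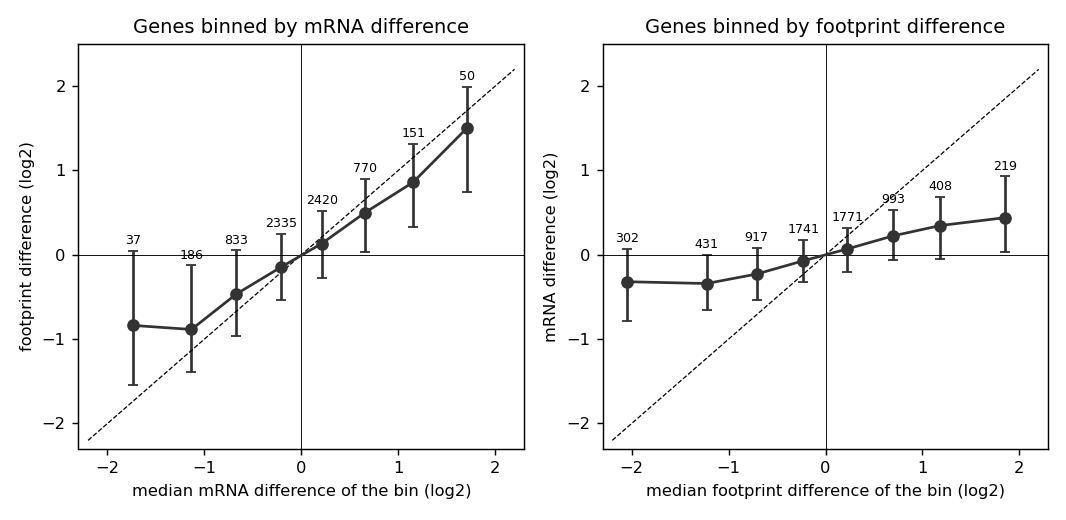
Median difference in one assay (vertical, with bars from the lower to the upper quartile) for genes binned by the difference in the other (horizontal), both log2, shY1-1 minus shY1-2, with the number of genes above each bin. Binned by mRNA (left), the highest bin of 50 genes has a median footprint difference of 1.51 at an mRNA median of 1.71, and the lowest bin of 37 genes has -0.84 at -1.74. Binned by footprints (right), the end bins have mRNA medians of 0.44 and -0.32.

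Cytosolic ribosomal protein genes had an mRNA median and a footprint median of opposite sign. These mRNAs encode the ribosome itself, and their translation is set by mTOR through a pyrimidine tract at the transcript start, the TOP element. Of 47 genes, 43 had a positive mRNA difference and 36 a negative footprint difference, and 33 had both, where 18.1% of all genes did. The median was 0.37 for mRNA, -0.33 for footprints and -0.69 for footprint minus mRNA difference. None was 2-fold different in mRNA, where 2.96% of all genes were higher and 3.29% lower. In footprints 3 were 2-fold lower, where 10.8% of all genes were. The footprint minus mRNA difference was at or below -1 for 10 of them (8.89% of all genes) and at or above 1 for 0 (8.23% of all genes). Against the control, the mRNA median was 0.28 for shY1-1 and -0.07 for shY1-2, and the footprint median was -0.16 for shY1-1 and 0.15 for shY1-2. The genes together held 24.1% of the mRNA signal in shY1-1, 20.8% in shY1-2 and 21.4% in the control, and 19.4%, 25.9% and 30.2% of the footprint signal in shY1-1, shY1-2 and the control. RPL3 alone held 19.0% of the control footprint signal, so the place of the control in these sums rests largely on 1 gene, and by the list median shY1-2 was above the control. Footprint minus mRNA medians were -0.68 for 28 large-subunit and -0.81 for 18 small-subunit genes, and 4 and 6 of these genes were at or below -1. The difference between the subunits was not tested.

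The 3 genes with 2-fold lower footprints were RPL23A, RPL5 and RPL21, all of the large subunit. RPL23A had 1985 of footprint signal in shY1-1, 7283 in shY1-2 and 1415 in the control, and RPL5 had 1926 in shY1-1, 6237 in shY1-2 and 1256 in the control. For these 2 genes shY1-2 stood apart and shY1-1 was near the control, with differences of -2.005 and -1.83. RPL21 had 7536 in shY1-1, 20054 in shY1-2 and 13407 in the control, a difference of -1.54, with the control between the knockdown libraries, and its mRNA difference was -0.74. With quantile normalisation the medians of the 47 genes shrank to 0.19 for mRNA, -0.16 for footprints and -0.43 for footprint minus mRNA difference. These genes have many near-identical pseudogenes, so how their reads were assigned makes single values uncertain.

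**Figure D5:**
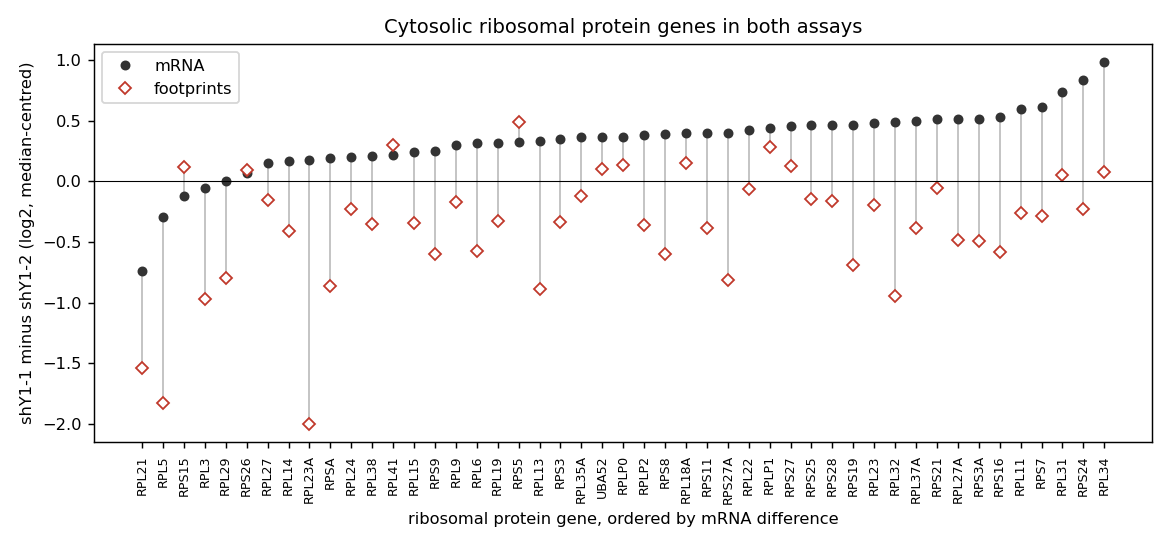
Difference between the libraries, shY1-1 minus shY1-2 on the centred log2 scale (vertical), for the 47 cytosolic ribosomal protein genes in order of their mRNA difference (horizontal), mRNA as filled circles and footprints as open diamonds. The mRNA point lies above 0 and the footprint point below 0 for 33 genes.

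The first 20 bases of 6 ribosomal protein transcripts are given to show the element, chosen after their values were seen. The letters start at the RefSeq start in GRCh38.p14, and the capitals mark the run of C and T from the first base.
RPS16, chr19:39435930-39435949, - strand: CCTTTTCCggttgcggcgcc
RPS24, chr10:78033863-78033882, + strand: CTCTTTTCCTCCTTggctgt
RPSA, chr3:39406720-39406739, + strand: CTTTTCCgtgctacctgcag
RPS3A, chr4:151099628-151099647, + strand: CCCTTTTggctctctgacca
RPL27A, chr11:8682792-8682811, + strand: CTTTTTCgtctgggctgcca
RPL37A, chr2:216498844-216498863, + strand: CTTTCTgggctcggacctag
A start of C followed by 4 bases that are C or T was found, on the gene's strand only, in 23 of 30 ribosomal protein windows (76.7%) and in 5.72% of all 4041. The 23 had a median footprint minus mRNA difference of -0.68, and those without it had -0.47. Among genes that are no ribosomal protein, the 208 with such a start had a median of -0.10 and the rest -0.00. Mitochondrial ribosomal protein genes, which are not of this class, had a median of -0.22 for footprints and -0.00 for mRNA over 47 genes, and 37 had a negative footprint minus mRNA difference (median -0.12). Translation factors (34 genes) had medians of opposite sign, 0.13 for mRNA and -0.16 for footprints. Their footprint minus mRNA median was -0.02, with 17 members above 0 and 17 below. With a minimum mean of 3 in each assay it was -0.33, at medians of 0.16 for mRNA and -0.20 for footprints. The 3 replication-dependent histone genes in the table had a footprint minus mRNA median of -1.17, which was -0.59 with genes at 0 in a knockdown library left out.

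Laminin genes of the basement membrane, which anchors epithelia, were among those higher in shY1-1 in both assays. LAMB3 (chromosome 1, 209614870 to 209652425), a beta chain, had 67.4 of mRNA signal in shY1-1, 18.3 in shY1-2 and 15.2 in the control, and 62.3, 5.70 and 5.72 of footprint signal in shY1-1, shY1-2 and the control. Only shY1-1 was high, with differences of 1.89 for mRNA and 3.11 for footprints. LAMA3, an alpha chain (chromosome 18, 23689453 to 23955066), had 3.47 of mRNA signal in shY1-1, 0.964 in shY1-2 and 0.794 in the control. Footprints were 4.43 in shY1-1, 0.990 in shY1-2 and 3.20 in the control, so in footprints the control was nearer to shY1-1. The differences of LAMA3 were 1.25 for mRNA and 1.32 for footprints.

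The list of integrins, matrix and cytoskeleton, which holds these chains, had medians of 0.30 for mRNA and 0.38 for footprints over 42 genes, with 4 members higher and 1 lower in mRNA, and 11 higher and 3 lower in footprints. Of all genes, 2.96% were higher and 3.29% lower in mRNA, and 9.25% were higher and 10.8% lower in footprints. THBS1, thrombospondin 1, was another member with higher mRNA, at 10.6 in shY1-1, 3.39 in shY1-2 and 7.87 in the control. VCL, vinculin of focal adhesions, was the lower one, at 20.01 in shY1-1, 45.4 in shY1-2 and 44.0 in the control, and its differences were -1.08 for mRNA and -1.32 for footprints. In footprints LAMB2, another laminin beta chain, was 1.54 higher and the collagen gene COL1A1 was 1.47 higher. FN1, fibronectin, and ITGA5, the alpha chain of its receptor, had footprint differences of -1.27 and -1.11.

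Genes of the immediate early response and AP-1 had the second highest list medians, 0.52 for mRNA and 0.75 for footprints over 18 genes, with 14 positive in both assays. ATF3, a stress-induced factor of the ATF family, had 12.1 of mRNA signal in shY1-1, 3.60 in shY1-2 and 2.66 in the control, and DUSP5, a phosphatase of ERK, had 68.9, 30.1 and 22.998 in shY1-1, shY1-2 and the control. JUN, a subunit of AP-1, had 15.0 in shY1-1, 6.601 in shY1-2 and 6.11 in the control. These are the 3 members with 2-fold higher mRNA (2.96% of all genes), at 1.57 for ATF3, 1.23 for DUSP5 and 1.13 for JUN. In footprints JUN, FOS, DUSP5 and ZFP36L1, a protein that directs AU-rich mRNAs to decay, were higher, at 1.29, 1.21, 1.05 and 1.03. FOS, the partner of JUN in AP-1, had low mRNA in every library, with 1.71 in shY1-1, 0.587 in shY1-2 and 0.727 in the control.

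The AP-1 letters are shown for LAMA3, chosen after its values were seen, as 150 bases with TGANTCA in capitals. They precede the transcript start of its RefSeq promoter entry in GRCh38.p14, which lies inside the gene's span given above and not at its first base.
LAMA3, chr18:23872870-23873019, + strand: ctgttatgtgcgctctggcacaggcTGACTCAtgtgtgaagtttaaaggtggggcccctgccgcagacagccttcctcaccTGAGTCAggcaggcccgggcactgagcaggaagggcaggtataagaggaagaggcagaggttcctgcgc
On both strands, TGANTCA was in 10 of the 123 windows of genes with 2-fold higher mRNA in shY1-1 (8.13%), in 3 of 119 windows of genes with 2-fold lower mRNA (2.52%) and in 3.24% of all windows. The other elements were searched in the same sets. TTTGAA was in 9.76% of the higher, 9.24% of the lower and 7.28% of all windows. For CCAAT these shares were 33.3%, 45.4% and 37.5%, and for the E2F words 4.07%, 6.72% and 4.65%. These differences in share were not tested.

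Stress and metabolic lists held single genes that differed, with medians nearer to 0. In the integrated stress response (27 genes, median -0.06 for mRNA, -0.23 under a minimum mean of 3, and 0.25 for footprints), 5 members had higher mRNA in shY1-1 (2.96% of all genes): SESN2 and ATF3, counted above in other lists, DDIT4, EPRS and CTH. DDIT4, an inhibitor of mTORC1, had 26.7 of mRNA signal in shY1-1, 13.3 in shY1-2 and 11.4 in the control, and differences of 1.01 for mRNA and 1.04 for footprints. EPRS, a transfer RNA synthetase, and CTH, of cysteine synthesis, both had mRNA differences of 1.01, with footprint differences of 0.68 and 0.56. PPP1R15A, the phosphatase subunit that reverses the response, was 1.10 higher in footprints. Footprints of CARS, the cysteine transfer RNA synthetase, were 19.8 in shY1-1, 294 in shY1-2 and 49.0 in the control, a difference of -3.96, and those of XPOT, a transfer RNA exporter, differed by -1.51. Of 16 genes of the unfolded protein response, the chaperone CRELD2 and the mannosidase-like EDEM1 had lower mRNA, at -1.89 and -1.22, and none had higher mRNA (3.29% and 2.96% of all genes).

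Among 13 NRF2 targets, HMOX1, the heme oxygenase, had 34.2 of mRNA signal in shY1-1, 8.34 in shY1-2 and 7.30 in the control, and 100.4 of footprint signal in shY1-1, 24.7 in shY1-2 and 5.03 in the control. In its footprints shY1-2 also stood above the control. FTH1, the ferritin heavy chain, had 3999 of mRNA signal in shY1-1, 1625 in shY1-2 and 1643 in the control, with differences of 1.36 for mRNA and 0.82 for footprints. FTL, the ferritin light chain, differed by -1.09 in footprints and -0.27 in mRNA, and UGDH, of UDP-glucuronate synthesis, by -1.73 and -1.17. The list median was -0.17 for mRNA and 0.01 for footprints, so the members did not move as 1 group.

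Of 24 interferon response genes, 18 had a positive mRNA difference, and 4 were 2-fold higher and 0 were lower (2.96% and 3.29% of all genes). The medians were 0.26 for mRNA (0.46 under a minimum mean of 3) and 0.38 for footprints. ISG20, an exonuclease, had 10.9 of mRNA signal in shY1-1, 3.67 in shY1-2 and 2.80 in the control, and IFI6 had 29.9, 11.8 and 16.1 in shY1-1, shY1-2 and the control. IFIH1, the sensor of double-stranded RNA MDA5, had 12.4 of footprint signal in shY1-1, 2.71 in shY1-2 and 4.09 in the control, and HERC6 had an mRNA difference of 1.17. The footprint differences were 1.70 for ISG20, 1.48 for IFI6 and 1.72 for IFIH1. STAT2, which carries the interferon signal to the nucleus, was lower in footprints, at -1.45, and footprints of IFI27 were listed at 0 in shY1-1, with 3.92 in shY1-2 and 2.57 in the control. Hypoxia targets (15 genes) had medians of 0.28 for mRNA (0.17 with a pseudocount of 5) and 0.60 for footprints. ANKRD37 had 4.38 of mRNA signal in shY1-1, 0.730 in shY1-2 and 2.15 in the control, ANGPTL4, a regulator of lipoprotein lipase, had an mRNA difference of 1.32, and P4HA1, a collagen hydroxylase, a footprint difference of 1.54.

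KRT18, a keratin of simple epithelia (chromosome 12, 52948855 to 52952906), was the epithelial member with 2-fold higher mRNA, at 1082 in shY1-1, 527 in shY1-2 and 636 in the control. Its footprints were 855 in shY1-1, 379 in shY1-2 and 381 in the control, and the differences were 1.09 and 1.04. The 24 epithelial genes had medians of 0.23 for mRNA (0.52 under a minimum mean of 3) and 0.42 for footprints, and PKP2, a desmosome protein, had the highest footprint difference of the list at 2.66 (44.1 in shY1-1, 5.50 in shY1-2 and 12.4 in the control). KRT23, another keratin, was higher in footprints by 1.42. Among 14 Wnt targets SOX9 was higher in mRNA at 1.31, and EPHB2 and NOTUM were lower at -1.52 and -1.23. BAMBI, a decoy receptor, was 1.92 higher in footprints, and the list medians were -0.18 for mRNA (-0.35 under a minimum mean of 3) and -0.16 for footprints.

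Of 51 splicing factors 39 had a negative mRNA difference and 38 a negative footprint difference, with medians of -0.20 and -0.32 and no 2-fold mRNA difference. Of 40 oxidative phosphorylation genes 34 had a positive mRNA difference, with medians of 0.24 for mRNA and 0.19 for footprints. NDUFB5, of complex I, went opposite ways in the assays. Its mRNA signal was 79.5 in shY1-1, 34.5 in shY1-2 and 86.2 in the control, and its footprint signal was 153 in shY1-1, 567 in shY1-2 and 454 in the control. Lysosome and autophagy genes (25) had medians of 0.06 for mRNA and 0.28 for footprints (0.12 under a minimum mean of 3). In mRNA 0 members were higher and 1 was lower (2.96% and 3.29% of all genes). In footprints 6 were higher and 1 was lower (9.25% and 10.8% of all genes). The members higher in footprints were led by ATP6V0A1, a subunit of the proton pump, at 1.65, and MAP1LC3B, which coats autophagosomes, at 1.59. Ribosome biogenesis (49 genes), proteasome and CCT (34), cholesterol synthesis (16), glycolysis (15), heat shock chaperones (12), translation factors (34) and zinc finger genes (171) had mRNA medians from -0.11 to 0.13.

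The largest single mRNA differences included BTG2, HMOX1 and NOC2L, which belong to lists above, and genes outside the lists. Among the 10 highest, 7 were also 2-fold higher in footprints and none was 2-fold lower. KRTAP2-3, a keratin-associated protein (chromosome 17, 41059240 to 41060114), had 156 of mRNA signal in shY1-1, 9.21 in shY1-2 and 34.5 in the control, and 214 of footprint signal in shY1-1, 23.4 in shY1-2 and 165 in the control. The control lay between the knockdown libraries in both assays, and the differences were 4.004 for mRNA and 3.01 for footprints. PLD1, a phospholipase D, had 51.9 of mRNA signal in shY1-1, 2.02 in shY1-2 and 0.903 in the control, yet 55.3 of footprint signal in shY1-1, 17.0 in shY1-2 and 51.4 in the control. TMEM40, MIA3, which helps to export collagen from the endoplasmic reticulum, and SVIL, an actin-binding protein, were higher in both assays. CEP152, of centriole duplication, BOD1L1 and IL4R, the interleukin-4 receptor, had mRNA differences of 3.17, 2.91 and 2.70 with footprint differences of 0.97, -0.01 and -0.19.

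Of the 10 lowest in mRNA, 4 were also 2-fold lower in footprints: RCCD1, RRBP1, ID2 and COQ5. ID2, an inhibitor of helix-loop-helix factors (chromosome 2, 8682056 to 8684461), had 9.85 of mRNA signal in shY1-1, 50.7 in shY1-2 and 42.8 in the control, and 75.4 of footprint signal in shY1-1, 335 in shY1-2 and 212 in the control. RRBP1, a ribosome-binding protein of the endoplasmic reticulum, had 9.13 of mRNA signal in shY1-1, 64.7 in shY1-2 and 62.5 in the control, and differences of -2.64 for mRNA and -3.17 for footprints. In both genes shY1-1 alone was low. COQ5, of coenzyme Q synthesis, differed by -2.10 in mRNA and -1.48 in footprints. RCCD1 had 7.69 in shY1-1, 244 in shY1-2 and 14.4 in the control. Its high mRNA value stands in shY1-2 alone, and its footprints were 19.4 in shY1-1, 128 in shY1-2 and 20.1 in the control. FHIT, NOC2L, EXOC6 and MRAS had mRNA differences of -3.12, -2.65, -2.57 and -2.06 without a 2-fold lower footprint value, and footprints of BCAN were listed at 0 in both knockdown libraries.

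The extreme footprint differences mostly had no mRNA difference beside them. Of the 10 lowest in footprints, none was 2-fold lower in mRNA and 9 were within 2-fold. The remaining gene, BCAS3, went the other way in mRNA, with a difference of 1.09. CHD8, a chromatin remodeller (chromosome 14, 21385199 to 21456123), had 19.6 of footprint signal in shY1-1, 1228 in shY1-2 and 1275 in the control, a difference of -6.03, with mRNA signals of 12.4 in shY1-1, 10.9 in shY1-2 and 10.2 in the control. CDK10, POLG, the mitochondrial DNA polymerase, IMMP1L, RNF149 and ZNF33B were also low in shY1-1 and higher in both shY1-2 and the control, with differences from -4.86 to -4.16. FAM89A, CCDC186 and BCAS3 had their high value in shY1-2 alone, at 187, 1076 and 267 of footprint signal, and ZHX3 had 1.01 in shY1-1, 68.6 in shY1-2 and 17.0 in the control.

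Of the 10 highest in footprints, 4 were 2-fold higher in mRNA as well: LAMB3, KRTAP2-3, VGLL4, a cofactor that represses TEAD factors, and KRTAP3-1, whose footprints were listed at 0 in shY1-2. MBD5, CR2, ADCY7, NAV3 and ARVCF had footprint differences from 3.07 to 4.95 and mRNA differences from -0.22 to 0.60. Among genes at or above the median level in both assays, TGFA, a ligand of the EGF receptor, and the GTPase HRAS had footprint minus mRNA differences of 2.57 and 2.43, and DNPEP had -2.75. HRAS had 311 of footprint signal in shY1-1, 41.9 in shY1-2 and 74.9 in the control, at mRNA signals of 150, 127 and 144 in shY1-1, shY1-2 and the control.

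Genes marked by m6A or bound by YTHDF1 had median differences near 0. Of the genes kept, 4918 (72.5%) had an m6A peak in both replicates of m6A-seq on control cells. Their median differences were -0.02 for mRNA, 0.00 for footprints and 0.02 for footprint minus mRNA, against 0.06, -0.01 and -0.08 for genes not listed in both. The 2417 genes listed as enriched in the YTHDF1 immunoprecipitate had medians of -0.05 for mRNA, 0.04 for footprints and 0.11 for footprint minus mRNA, against 0.03, -0.02 and -0.05 for the others. At least 2-fold lower in mRNA were 4.39% of the genes in the immunoprecipitate list and 2.68% of the others. These lists also differ in level, in opposite ways. The median mRNA level on the log2 scale was 3.84 with m6A peaks and 3.13 for genes not listed in both replicates. For the immunoprecipitate list it was lower, at 3.55 for listed genes and 3.80 for the others. The median footprint level was 4.05 for genes in the immunoprecipitate list and 5.03 for the others. The part of level in these differences was not tested.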

How the data were processed

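The authors deposited a relative signal per gene for 6 libraries, 3 of ribosome footprints and 3 of mRNA. Neither its unit nor its normalisation is named in the file headers, so depth is unknown. STAR and GRCh38 were used, per the submitters' processing notes; no version of either is given in the sources used here. No control value is below 0.500, so the deposited table appears filtered on the control. The genes used lie on chromosomes 1 to 4 and 10 to 22, with 1 on chromosome 7, and genes of other chromosomes were not analysed here. Of 6926 table rows, 12 with damaged names and 132 genes with a mean log2(value + 1) under 1 over the 6 libraries were left out, which left 6782. RefSeq (GRCh38.p14) records were matched for 6759 of them (99.7%) and gave coordinates and promoter windows. The deposited immunoprecipitation list gives FPKM values and their ratio (at least 1.5), and the deposited m6A lists give a ratio of peak to input (at least 3) and signals. Only presence in these lists was used.

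The 27 gene lists and the named genes were chosen with earlier results of these data known. Named were YTHDF1, the 10 highest and lowest differences per assay among genes at or above the lower quartile of level, the 6 highest and lowest footprint minus mRNA differences among genes at or above the median level in both assays, up to 6 members per list and direction past 1 in mRNA and up to 4 in footprints, and cell type markers. Of genes that several lists hold, values are given once. Differences, medians and slopes were computed with Python 3.11.15, pandas 2.3.3 and numpy 2.4.6, and the code was tested on simulated data. In all 7 alternatives were tried: other pseudocounts, filters and scalings, and leaving out genes at 0. Values of some genes that the rule names are not reported here.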

Additional observations from a re-analysis of the deposited data

How the results depend on the processing

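No paired analysis was possible because each assay has 1 library on each side, and for the same reason leaving out a replicate was possible only for m6A-seq. Without either m6A replicate, the medians of genes with a peak moved by less than 0.1. With a pseudocount of 0.1, counts of genes at least 1 higher and lower in shY1-1 were 324 and 363 for mRNA, and 153 and 152 in both assays. With a pseudocount of 5 they were 69 and 60 for mRNA, 350 and 375 for footprints, and 38 and 20 in both. With a minimum mean of 3 in each assay, which keeps 4090 genes, they were 94 and 106 for mRNA, 278 and 302 for footprints, and 49 and 46 in both. Fewer genes were tested there; the cause of the other shifts was not tested.

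Over the 7 alternatives, the coefficient between assays stayed between 0.32 and 0.46 and the slope of footprint on mRNA difference between 0.58 and 0.67. The p53 target medians stayed between 0.60 and 0.80 for mRNA and between 0.66 and 0.98 for footprints, and the mitosis and replication medians stayed negative in both assays. The ribosomal protein medians kept their sign, but quantile normalisation gave 0.19 for mRNA, -0.16 for footprints and -0.43 for footprint minus mRNA, and without centring the footprint median was -0.20. Without centring, the footprint minus mRNA medians of 13 of the 27 lists changed from negative to positive, among them mitosis (0.14), replication (0.15), mitochondrial ribosomal proteins (0.063), oxidative phosphorylation (0.083), NRF2 targets (0.054) and splicing factors (0.077), and the footprint median of heat shock chaperones became 0.025 (0.046 with quantile normalisation). Of 72 medians of the other lists, 16 moved by over 1.5 times or changed sign with the minimum mean of 3 in each assay. Dependence was largest without centring, where 36 of the 72 moved, 5 more reversed and 31 stayed the same. No value has a replicate, and depth is unknown, so differences of low genes and footprint differences without an mRNA difference are the least certain.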
